A study of Mus musculus with 6 samples.

Results

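The 9 genes followed here encode receptors with which blood cells sense growth factors, in a mouse model of chronic myeloid leukemia at its blast crisis stage (bcCML): Kit, Flt3, Csf1r, Csf3r, Il6ra, Csf2ra, Il3ra, Csf2rb and Csf2rb2. They were chosen by name, as the rows of these 9 genes among the 36083 genes with a value per library, and all 9 were found. RNA-seq had been performed on Lin- bcCML cells, which are leukemic cells sorted as negative for antibodies against mature blood lineages, from spleens of mice labelled as NSG. In both groups KLS donor cells on a B6 background, which are bone marrow cells sorted as Kit+, lineage-negative and Sca1+, carried BCR-ABL and NUP98-HOXA9 from retroviral vectors, and only cells positive for both oncogenes were transplanted. The donors were WT in one group and Sdc1-/- in the other, lacking syndecan-1, a cell surface heparan sulfate proteoglycan, and each group had 3 libraries. The comparison addresses what loss of Sdc1 does to the transcripts of bcCML cells. The sources differ on the age of the mice, 8 to 16 weeks in one place and 4 to 8 weeks in another. The study's general methods also describe an overnight culture of the donor cells with SCF, the ligand of Kit, among other additives. The labels name NSG recipients, while the study's general methods name irradiated CD45.1 mice for primary transplants. NSG mice lack T, B and NK cells but keep their own myeloid, red and stromal cells, and CD45.1 mice keep host cells of all these kinds. The study's gating for primary bcCML took live cells positive for the markers of both vectors, and then those negative for lineage antibodies. Its supplement lists the RNA-seq among the uses of the Lin- sort. Host cells carry no vector, so that gate selects donor cells, although no purity is given for this sort.

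The libraries differ in more than the donor genotype. Sdc1 itself, the targeted gene, was higher in the 3 libraries labelled Sdc1-/-, at 3.85, 3.80 and 4.12 against 1.75, 1.21 and 1.51 in the libraries labelled WT, with an adjusted p = 1.2e-04 from limma. The knockout allele, by the study's account, was made by altering the part of Sdc1 that encodes the signal peptide, so that no mature protein reaches the cell surface. A value summed over the gene does not check such an allele. The values go against the labels if the allele were to remove the transcript and do not bear on them if it leaves one, and each direction given here is that of the libraries as labelled. The Y-linked genes Ddx3y, Eif2s3y, Kdm5d and Uty summed to at most 0.308 in any library labelled WT and to 68.1 to 78.4 in those labelled Sdc1-/-, so that donor sex and genotype cannot be told apart. All 3 libraries of a group share these features, and no comparison without them can be made. The study describes the WT libraries as technical replicates in one place, and nothing states that the libraries of a group came from separate mice. The p-values then measure only the spread between these libraries.

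The receptors are described here in 3 groups. Kit, Flt3 and Csf1r are class III receptor tyrosine kinases, which pair up around SCF, FLT3 ligand and M-CSF (or IL-34) and phosphorylate each other. Csf3r, the receptor of G-CSF, pairs with itself and signals through JAK kinases, while Il6ra binds IL-6 and needs Il6st (gp130) to signal. Csf2ra and Il3ra are the alpha chains that bind GM-CSF and IL-3, and both signal through the common beta chain Csf2rb. Mice have a further beta chain, Csf2rb2, which serves IL-3 alone. In normal marrow, Kit and Flt3 mark stem and progenitor cells, Csf3r is carried by the granulocyte lineage and Csf1r by monocytes and macrophages.

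The beta chain genes are neighbours on chromosome 15 and near copies of each other, which matters for their values. On the mouse build GRCm38, in the GENCODE M21 annotation, Csf2rb spans chr15:78325752-78353847 on the plus strand and Csf2rb2 chr15:78282507-78305721 on the minus strand. Their coding sequences of 2688 and 2634 bases were identical at 95.2% of 2628 aligned bases. Of 2258 windows of 75 bases, which is the length of a read, 413 (18.3%) were the same in both genes. The window below is the one that differs most, by 14 bases, and is shown because reads like these tell the genes apart. Capitals mark the bases that differ, and positions count from the first coding base (316 to 390 in Csf2rb and 319 to 393 in Csf2rb2).
Csf2rb: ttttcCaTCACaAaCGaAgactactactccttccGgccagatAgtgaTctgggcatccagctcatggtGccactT
Csf2rb2: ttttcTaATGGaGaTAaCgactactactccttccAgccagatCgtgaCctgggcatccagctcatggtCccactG
A window from coding base 485 of Csf2rb and 488 of Csf2rb2 shows the opposite case, in which a read cannot be assigned to either gene by its letters:
Csf2rb and Csf2rb2: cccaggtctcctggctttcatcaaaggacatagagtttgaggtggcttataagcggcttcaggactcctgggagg
Measured in words of 31 bases, 1369 words were shared by the transcripts of the pair, and 19.6% of all words of Csf2rb and 30.1% of those of Csf2rb2 also occurred in another gene. The split between Csf2rb and Csf2rb2 is therefore uncertain, while their sum is less affected by it. Csf3r had 23.1% of its words in other genes, mostly in the processed pseudogene AC105061.2. For the other 6 genes the share was at most 0.719%.

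Promoter sequences, from RefSeq on GRCm38.p6, were used for 7 of the 9 genes, without Csf1r and Csf2rb. For Kit, only the promoter entry with the lowest start position was taken. The 250 bases before each start were searched on both strands for 4 motifs, chosen with the changes of the receptors and of their transcription factors known. The PU.1 motif GAGGAAG was found in 4 of the 7 promoters (Kit, Csf3r, Csf2ra and Csf2rb2), and 10.6% of 32851 RefSeq promoters hold it in a window of that length. The C/EBP motif TTGCNNAA was found in Il3ra alone and the GATA motif AGATAA in Il6ra alone, against 9.6% and 10.0% of all promoters. The RUNX motif TGTGGT, held by 14.0%, was found in none of the 7. In the GENCODE annotation Csf3r and Il3ra begin earlier, so that 109 and 220 of their 250 bases lie within the annotated gene. The PU.1 match of Csf3r and the C/EBP match of Il3ra are in that part. The promoters of Csf2rb2, Csf2ra and Kit with the PU.1 motif are shown because their genes moved in both directions, and that of Flt3 because it holds none of the motifs. Each is read 5′ to 3′ on the strand of its gene, with the motif in capitals. The matches of Csf2ra share 1 base, and a match is a stretch of letters, not a measured binding site.
Csf2rb2, chr15:78305722-78305971, minus strand: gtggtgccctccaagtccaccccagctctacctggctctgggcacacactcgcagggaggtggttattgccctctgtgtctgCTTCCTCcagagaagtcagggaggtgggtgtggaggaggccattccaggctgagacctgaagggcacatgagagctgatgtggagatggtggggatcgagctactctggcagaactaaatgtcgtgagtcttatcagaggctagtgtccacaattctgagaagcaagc
Csf2ra, chr19:61228419-61228668, minus strand: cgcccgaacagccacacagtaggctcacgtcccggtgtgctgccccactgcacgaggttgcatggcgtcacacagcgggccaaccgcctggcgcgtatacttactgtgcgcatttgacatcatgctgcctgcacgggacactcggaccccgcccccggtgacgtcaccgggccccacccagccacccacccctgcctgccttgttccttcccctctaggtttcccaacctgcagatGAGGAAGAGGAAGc
Kit, chr5:75574737-75574915, plus strand: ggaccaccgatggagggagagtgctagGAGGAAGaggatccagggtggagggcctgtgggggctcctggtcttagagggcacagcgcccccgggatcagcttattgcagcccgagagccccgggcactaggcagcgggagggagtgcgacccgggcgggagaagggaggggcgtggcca
Flt3, chr5:147400490-147400739, minus strand: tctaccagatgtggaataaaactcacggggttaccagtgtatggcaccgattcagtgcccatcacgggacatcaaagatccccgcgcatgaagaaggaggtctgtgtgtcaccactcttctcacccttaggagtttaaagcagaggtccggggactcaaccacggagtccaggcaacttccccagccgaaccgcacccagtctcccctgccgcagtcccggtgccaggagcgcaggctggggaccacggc
The Kit stretch stops where the annotated gene begins, and the last 11 bases of that of Csf2ra lie within the annotated gene.

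Of the 9 receptor genes, 6 were lower in the libraries labelled Sdc1-/-, 1 was higher (Kit), 1 was not called (Il3ra), and 1 (Il6ra) was too low for the test. Values are TPM, a transcript abundance corrected for transcript length, which the authors had rescaled between libraries. The test was limma on log2(value + 1), over 12155 genes whose mean was 1 or more, with Benjamini-Hochberg adjustment at 0.05, and fold changes on that scale understate the change of low genes. A call by itself says little here, since 60.7% of all genes tested were called, 29.3% as higher and 31.3% as lower. A call as lower with a log2 fold change of -0.5 or below was less common, at 10.2% of the genes tested, and 5 receptor genes were in that range. The libraries of the groups did not overlap for 7 receptor genes that were lower and for 1 that was higher (34.2% and 32.6% of the genes tested). Csf1r passed the minimum mean only through the libraries labelled WT, where it was above 1.

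**Figure D1:**
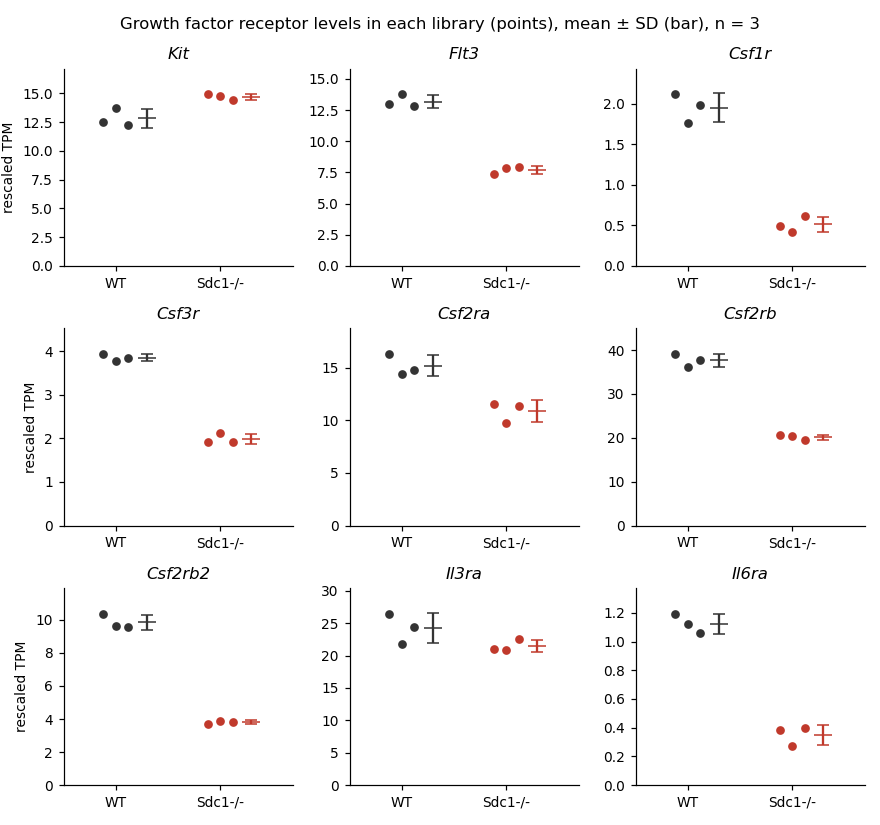
Level of each receptor gene (rescaled TPM, axis from 0) in the 3 libraries labelled WT (black points) and the 3 labelled Sdc1-/- (red points), with mean and SD beside them. The groups overlap for Il3ra, Kit is higher in the Sdc1-/- libraries, and the other 7 genes are lower there.

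Among the tyrosine kinase receptors, the pair of progenitor receptors moved in opposite directions. Kit, the receptor of stem cell factor (chr5:75574916-75656722), had values of 12.5, 13.7 and 12.2 in the libraries labelled WT and of 14.9, 14.8 and 14.4 in those labelled Sdc1-/-. All 3 Sdc1-/- libraries were above all 3 WT libraries, by little. The log2 fold change was 0.18 (SE 0.05), with an adjusted p = 0.018 from limma. This call depended on single libraries, as the adjusted p from limma was 0.055 without WT replicate 1, 0.060 without WT replicate 3 and 0.055 without Sdc1-/- replicate 2. Flt3, the receptor of FLT3 ligand (chr5:147330741-147400489), stood at 12.9, 13.8 and 12.8 in the WT libraries and at 7.36, 7.83 and 7.95 in the Sdc1-/- libraries. The lowest WT value was well above the highest Sdc1-/- value. Flt3 fell by 0.70 (SE 0.05) on the log2 scale, with an adjusted p = 3.2e-05 from limma, and its mean level was 1.71-fold higher in the WT libraries.

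Csf1r, the receptor of M-CSF on monocytes and macrophages (on chromosome 18), was near the lower end of what the table resolves. It had values of 2.12, 1.76 and 1.98 in the WT libraries and of 0.50, 0.42 and 0.61 in the Sdc1-/- libraries. Groups were far apart relative to their spread, and the mean level was 3.81-fold higher in the WT libraries. On the log2(value + 1) scale the gene fell by 0.97 (SE 0.09), with an adjusted p = 1.1e-04 from limma, and the size depends on the pseudocount (-1.75 at a pseudocount of 0.1). Of the 12155 genes tested, 3.32% had a lower log2 fold change.

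The receptors of G-CSF and of the inflammatory cytokine IL-6 had lower levels as well. Csf3r (chr4:126024550-126044440) gave 3.94, 3.78 and 3.84 in the WT libraries and 1.92, 2.11 and 1.91 in the Sdc1-/- libraries. Its values within a group lay close together, and the groups did not overlap. Csf3r fell by 0.70 (SE 0.06) on the log2 scale, with an adjusted p = 8.1e-05 from limma, a level 1.94-fold higher in the WT libraries. Il6ra (chr3:89864059-89913196) was low in every library, at 1.20, 1.12 and 1.06 against 0.38, 0.27 and 0.40. Its mean over the 6 libraries was under 1, so it had no test at that minimum. Without a minimum mean, it fell by 0.66 (SE 0.06) on the log2(value + 1) scale, with an adjusted p = 6.1e-04 from limma, where 16.6% of 24714 genes were called lower. Il6st, the signaling chain that Il6ra needs, was at 1.03, 0.93 and 0.73 in the WT libraries and at 0.82, 0.83 and 0.83 in the Sdc1-/- libraries, so its groups overlapped.

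The common beta family divided between its beta chains and its alpha chains. Csf2rb, the beta chain shared by the IL-3, IL-5 and GM-CSF receptors, was the highest of the 9 in the WT libraries, at 39.1, 36.2 and 37.8, and stood at 20.6, 20.4 and 19.5 in the Sdc1-/- libraries. Csf2rb2, the beta chain of the IL-3 receptor alone, had values of 10.4, 9.64 and 9.55 in the WT libraries and of 3.70, 3.91 and 3.85 in the Sdc1-/- libraries. Neither gene had a library near the other group. Csf2rb fell by 0.87 (SE 0.04) and Csf2rb2 by 1.17 (SE 0.05) on the log2 scale, with adjusted p-values of 6.8e-06 and 4.8e-06 from limma. On this scale no other receptor gene of the 8 tested had a change as large as that of Csf2rb2, although the ratio of the mean levels was larger for Csf1r (3.81-fold against 2.58-fold), and 2.12% of all genes tested had a lower log2 fold change. The sum of both beta chains, which is less exposed to how reads were split between them, was 47.6 ± 1.83 (SD, n = 3) in the WT libraries and 24.0 ± 0.55 (SD, n = 3) in the Sdc1-/- libraries, a 1.98-fold difference.

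The alpha chains changed less. Csf2ra, which binds GM-CSF (chr19:61223957-61228429), had values of 16.3, 14.4 and 14.8 in the WT libraries and of 11.6, 9.73 and 11.3 in the Sdc1-/- libraries. The groups were separate, and the spread within each was the widest relative to the difference among the called genes other than Kit. Csf2ra fell by 0.45 (SE 0.08) on the log2 scale, with an adjusted p = 0.0020 from limma. Il3ra, which binds IL-3 (chr14:14346275-14356011), had values of 26.5, 21.8 and 24.3 in the WT libraries and of 21.0, 20.8 and 22.5 in the Sdc1-/- libraries. One WT library lay inside the range of the Sdc1-/- libraries. Its log2 fold change of -0.16 (95% interval -0.33 to 0.0049) had an adjusted p = 0.084 from limma and was not called. Leaving out WT replicate 2, the lowest WT library, gave -0.23 and an adjusted p = 0.014 from limma.

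**Figure D2:**
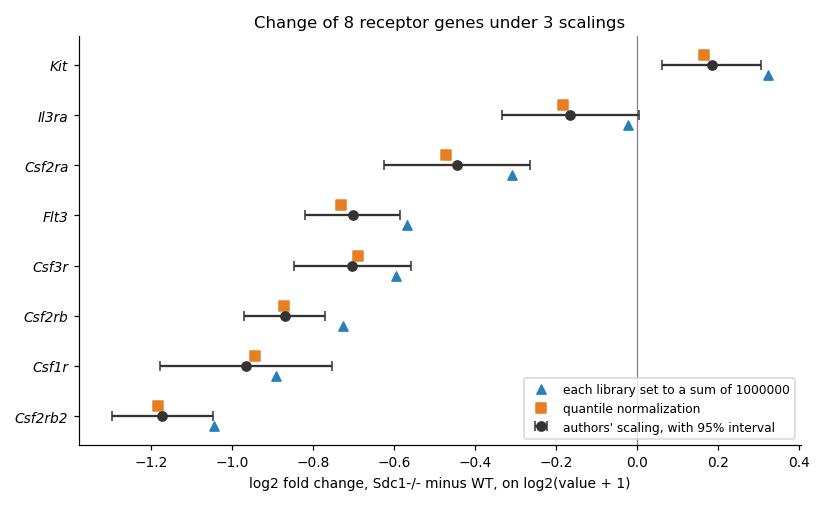
Log2 fold change (Sdc1-/- minus WT, on log2(value + 1)) of the 8 receptor genes tested, with the authors' scaling and its 95% interval (black), with each library set to a sum of 1000000 (blue triangles) and after quantile normalization (orange squares). Kit is the one gene above 0 under all 3 scalings, and Il3ra is at -0.02 with the fixed sum.

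Scaling to a fixed sum moved the log2 fold change of every receptor gene tested upward. The deposited values summed to 1048875 to 1058263 in the WT libraries and to 944973 to 951814 in the Sdc1-/- libraries. Setting each library to a sum of 1000000 moved the median of all log2 fold changes from -0.01 to 0.12 and turned the split of calls from 51.7% lower to 30.9% lower. Kit then had a log2 fold change of 0.32 and Il3ra of -0.02 (adjusted p = 0.80 from limma), while the 6 receptor genes called lower were still called lower. Relative to the median of all genes, Kit was at 0.19 with the authors' scaling and at 0.20 with the fixed sum. Il3ra was at -0.15 and -0.15, Csf2rb2 at -1.16 and -1.17, and Csf1r at -0.96 and -1.01. After quantile normalization, Kit was at 0.15, Il3ra at -0.20, Csf2rb2 at -1.20 and Csf1r at -0.96.

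Because the receptors moved by different amounts, their order differed between the groups. In the libraries labelled WT the mean levels, per transcript length, ran from Csf2rb (37.7) over Il3ra (24.2), Csf2ra (15.2), Flt3 (13.2), Kit (12.8), Csf2rb2 (9.86), Csf3r (3.85) and Csf1r (1.95) to Il6ra (1.12). Flt3 and Kit were the one pair of neighbours whose libraries overlapped. In the Sdc1-/- libraries Il3ra (21.4) came before Csf2rb (20.2), and Kit (14.7) came next, ahead of Csf2ra (10.9) and Flt3 (7.71). Csf2rb2 (3.82), Csf3r (1.98), Csf1r (0.51) and Il6ra (0.35) kept the last places, and no neighbours overlapped. Csf2rb was above 91.0% of all genes in the table in the WT libraries, and Il6ra above 67.0%. These shares count 11369 of the 36083 genes that were at 0 in every library.

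The summed level of the 9 receptor genes was 119.9 ± 4.56 (SD, n = 3) in the WT libraries and 81.6 ± 1.13 (SD, n = 3) in the Sdc1-/- libraries, 1.47-fold apart. Csf2rb and Csf2rb2 together made up 39.7% ± 0.26 of that sum in the WT libraries and 29.4% ± 0.99 in the Sdc1-/- libraries. Kit went the other way, from 10.7% ± 0.97 to 18.0% ± 0.49, and Il3ra from 20.2% ± 1.26 to 26.3% ± 0.87 (SD, n = 3 for each). The share of Csf2ra overlapped between groups, at 12.6% ± 0.35 in the WT libraries and 13.3% ± 1.07 in the Sdc1-/- libraries (SD, n = 3 each).

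Ratios of receptors within a library do not depend on the scaling between libraries. Of 8 ratios compared, all 8 were without overlap between groups, and each had a two-sided exact permutation p = 0.1, the smallest that 3 against 3 libraries allow, so that none could pass 0.05 (adjusted p = 0.1 over the 8). Among single genes tested, 32.6% were higher and 34.2% lower without overlap, and ratios of other genes were not computed, so the count cannot be read as particular to the receptors. Flt3 and Kit were about equal in the WT libraries, with ratios of 1.04, 1.00 and 1.05, and Flt3 was lower than Kit in the Sdc1-/- libraries, with ratios of 0.49, 0.53 and 0.55. Flt3/Kit was thus 1.96-fold higher in the WT libraries. The ratio of Csf3r to Kit, a granulocyte receptor against a progenitor receptor, was 0.301 ± 0.023 against 0.135 ± 0.0074 (SD, n = 3 each). For Csf1r to Kit the values were 0.153 ± 0.022 and 0.0349 ± 0.0071 (SD, n = 3 each).

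Alpha chains gained on the beta chains. Il3ra over the summed beta chains was 0.53, 0.48 and 0.51 in the WT libraries and 0.86, 0.86 and 0.96 in the Sdc1-/- libraries, 1.76-fold higher in the latter. Csf2ra over the summed beta chains rose less, from 0.319 ± 0.0091 to 0.454 ± 0.047 (SD, n = 3 each). Csf2rb2 over Csf2rb was 0.261 ± 0.0074 in the WT libraries and 0.189 ± 0.0091 in the Sdc1-/- libraries (SD, n = 3 each), a ratio exposed to the reads the pair shares. Csf1r over Csf3r was 0.507 ± 0.037 and 0.260 ± 0.060, and Il6ra over Il6st was 1.27 ± 0.16 and 0.423 ± 0.083 (SD, n = 3 each), both from levels around 1. With a pseudocount of 1 in both levels, the log2 difference between groups went from -0.98 to -0.26 for Csf1r over Csf3r, from -2.14 to -1.15 for Csf1r over Kit and from -1.60 to -0.60 for Il6ra over Il6st.

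**Figure D3:**
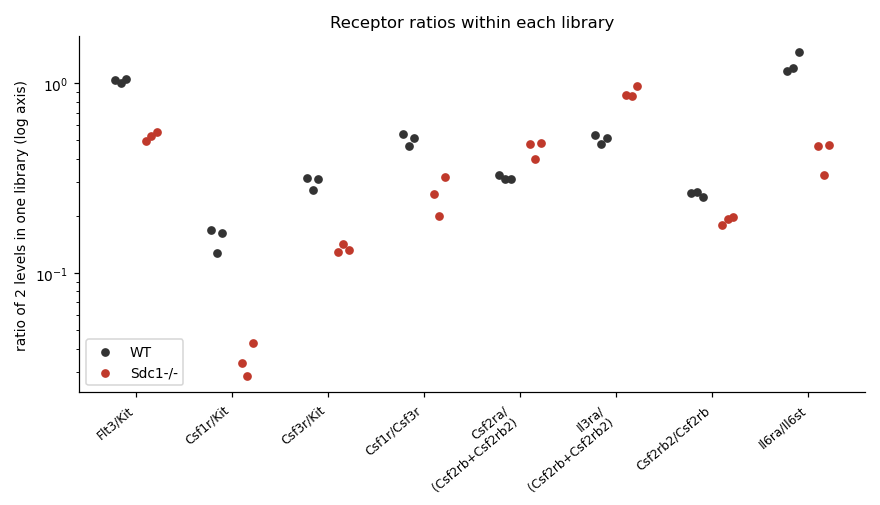
Ratio of 2 receptor levels within each library (log axis) for the 3 libraries labelled WT (black) and the 3 labelled Sdc1-/- (red). The groups are separate for all 8 ratios, with the alpha chains higher against the beta chains and every other ratio lower in the Sdc1-/- libraries.

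Most ligands of these receptors were scarcely measured in the same cells. Of 12 ligand genes, 3 had a mean of at least 1, and Csf3 and Epo were among those listed at 0 in every library. Flt3l, the ligand of Flt3, had the highest value, at 25.0, 25.1 and 22.9 in the WT libraries and 22.5, 25.3 and 23.6 in the Sdc1-/- libraries, and its groups overlapped (adjusted p = 0.65 from limma). Csf1, which encodes M-CSF, was at 3.49, 3.61 and 3.05 against 1.52, 1.17 and 1.81, and fell by 0.82 on the log2 scale (adjusted p = 6.4e-04 from limma). Il6 was at 10.1, 10.8 and 8.24 against 3.78, 3.72 and 3.40, and fell by 1.20 (adjusted p = 5.4e-05 from limma). The 2 ligand genes called lower bind Csf1r and Il6ra, which had lower values as well. Over all genes tested, 31.3% were called lower, and 19.5% with the fixed sum. Most receptor genes were lower too, so this match cannot be read as particular to these pairs. Kitl, encoding stem cell factor, was below 0.5 in every library, with 0.20, 0.20 and 0.13 in the WT and 0.32, 0.43 and 0.37 in the Sdc1-/- libraries. Without a minimum mean, Kitl was called higher, by 0.23 on the log2(value + 1) scale (adjusted p = 0.0095 from limma). In that fit, 15.9% of 24714 genes were called higher. Csf2 ran from 0.38 to 0.79, Il34 from 0.42 to 1.32 and Il3, Il5 and Il11 from 0 to 0.12 over the 6 libraries.

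Other cytokine receptors of blood cells were mostly lower too. Of 24 tested from a list of 31, 16 were called lower, 4 higher and 4 were not called, with a median log2 fold change of -0.34 against -0.01 over all genes tested. With a fixed sum per library, 12 were lower and 4 higher. Over all genes tested, 31.3% were called lower and 29.3% higher, and 19.5% and 43.5% with the fixed sum. Il4ra, the IL-4 receptor chain, had the largest change, with 24.3, 23.6 and 24.2 against 9.17, 9.16 and 10.1, and fell by 1.26. Il10ra, for IL-10, fell by 0.92, Il1rl1, for IL-33, by 0.84, Il1r1 (above the minimum mean only in the WT libraries) by 0.69 and Tgfbr2 by 0.64. Il27ra was the exception in size, at 5.66, 5.72 and 5.72 against 11.9, 11.8 and 11.6, with a log2 fold change of 0.93. Epor, the erythropoietin receptor, was slightly higher at 38.7 against 35.0 (log2 fold change 0.14, adjusted p = 0.042 from limma).

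Transducers directly behind the receptors were divided. Of 36 tested from a list of 38, 17 were called lower, 8 higher and 11 were not called, with a median log2 fold change of -0.09. With a fixed sum per library 11 were lower and 14 higher. All genes tested gave 31.3% lower and 29.3% higher, and 19.5% and 43.5% with the fixed sum. The Src family kinases Fgr and Lyn fell by 1.09 and 0.68. Fgr was at 7.13, 7.28 and 7.24 in the WT libraries and 2.98, 2.82 and 2.79 in the Sdc1-/- libraries. Fyn, a further Src family kinase, named after its values were seen, was higher instead, at 18.7, 17.2 and 21.8 against 28.4, 29.5 and 30.5 (log2 fold change 0.60, adjusted p = 7.0e-04 from limma). Gab2, an adaptor that links Kit and the beta chains to PI3 kinase, fell by 0.88 and Pik3cg, a PI3 kinase subunit, by 0.80. Jak3, which works with Il2rg, was higher instead, at 4.40, 3.43 and 4.25 against 9.35, 8.29 and 8.75, with a log2 fold change of 0.97.

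Negative regulators held no gene called higher with the authors' scaling. Of 20 tested from a list of 21, 9 were called lower and 11 were not called, and the median log2 fold change was -0.10. With a fixed sum per library, 6 were lower and 5 higher. Sla, an adaptor that promotes the removal of some receptors from the surface, fell by 0.88, and Cish, a feedback inhibitor induced by STAT5, fell by 0.65 from 88.8, 84.1 and 79.6 to 53.7, 53.2 and 53.3. Among 14 genes known as targets of STAT5, 11 were tested, 6 were lower (Cish with the largest change), 2 higher and 3 not called, with a median of -0.20. Cish and the Socs genes are also among the negative regulators, so they are counted in both lists. Myc is also among the transcription factors below. With a fixed sum, 4 were lower and 3 higher. For both lists, the shares over all genes tested were 31.3% lower and 29.3% higher, and 19.5% and 43.5% with the fixed sum.

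Transcription factors known to act on myeloid receptor genes moved both ways. Of 22 tested from a list of 26, 8 were called lower, 9 higher and 5 were not called, with a median of 0.04. With a fixed sum 6 were lower and 11 higher. The shares over all genes tested were 31.3% lower and 29.3% higher, and 19.5% and 43.5% with the fixed sum, so such a split is common. Spi1, which encodes PU.1, was at 110.9, 113.5 and 108.8 in the WT libraries and at 65.3, 58.9 and 54.0 in the Sdc1-/- libraries, and fell by 0.90. Cebpa and Cebpe, the C/EBP factors of early and late granulocytes, fell by 0.91 and 1.03. Factors of stem and progenitor cells were among those higher. Meis1 went from 13.4, 12.7 and 13.1 to 27.4, 29.5 and 28.9 (log2 fold change 1.07), and Erg had a log2 fold change of 0.85.

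**Figure D4:**
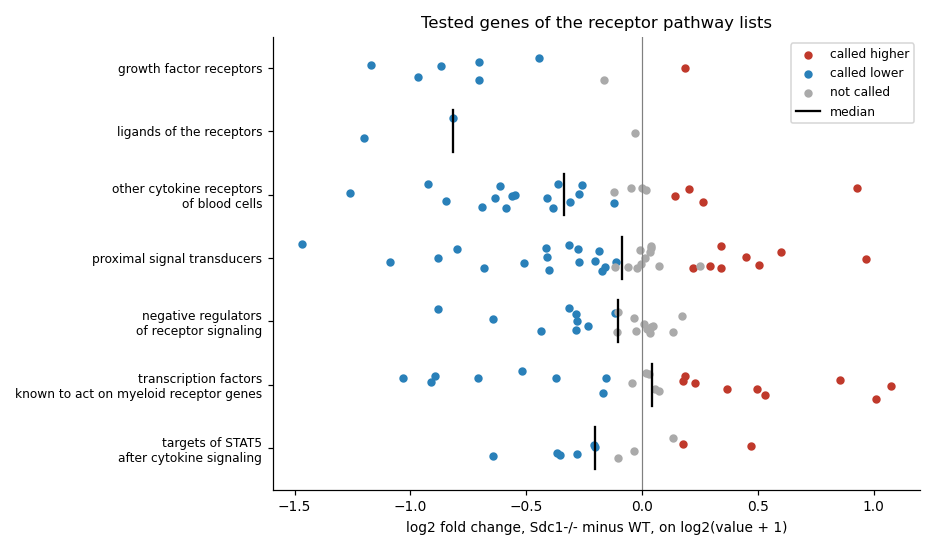
Log2 fold change (Sdc1-/- minus WT, on log2(value + 1)) of each tested gene in the receptor group and the 6 pathway lists, colored by its call, with the median of each pathway list as a black bar. The medians run from -0.82 for the 3 ligands to 0.04 for the 22 transcription factors.

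Markers of maturing myeloid cells were mostly lower, as were most of the receptor genes but not Kit. Of all genes tested, 31.3% were called lower. All 11 neutrophil markers tested were called lower, and their summed level was 13167 to 14105 in the WT libraries and 4730 to 4867 in the Sdc1-/- libraries, 2.82-fold apart, beside the 1.94-fold of Csf3r. Of 12 monocyte and macrophage markers tested, 11 were lower and 1 was not called, with a sum of 310.4 to 318.9 against 153.0 to 155.3 (2.04-fold), beside the 3.81-fold of Csf1r. For mast cells and basophils, which also carry the IL-3 receptor, 6 of 6 tested markers were lower. Their sum was 427.1 to 435.5 against 156.9 to 159.8 (2.73-fold), beside the 1.98-fold of the beta chains. Il3ra, the chain that binds IL-3, was not called, at means of 24.2 and 21.4. The sort should have removed cells with the surface marker genes Itgam and Ly6g, yet these had values of 23.3 to 24.0 and 8.64 to 8.88 in the WT libraries and of 7.14 to 7.69 and 1.81 to 2.23 in the Sdc1-/- libraries. In bulk RNA, fewer cells of a type and less RNA per cell cannot be told apart. The part of these cell types in the receptor levels was not tested.

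Counts were mixed for other lineages. Erythroid markers summed to 9494 to 10195 in the WT libraries and to 5258 to 5658 in the Sdc1-/- libraries, with 7 of 8 lower and 1 higher. Of 11 stem and progenitor markers tested, 4 were higher, 6 lower and 1 was not called (5 higher and 5 lower with a fixed sum). All genes tested gave 29.3% higher and 31.3% lower (43.5% and 19.5% with the fixed sum). Slamf1 and Procr, markers of stem cells, were higher, with log2 fold changes of 0.75 and 0.66, and Procr was above 1 only in the Sdc1-/- libraries. Elane, a protease of granulocyte progenitors, fell by 0.70, and Ly6a, which encodes Sca1, fell by 1.36. Among markers of other cells of a spleen, Cd3e of T cells and Pax5 of B cells were at most 0.04 and Cdh5 of endothelium at most 0.02 in any library. Their lists were not at 0 as a whole. The T cell list summed to 124.8 to 133.9 in the WT and 115.1 to 120.4 in the Sdc1-/- libraries, nearly all of it Lat, an adaptor that mast cells and platelets also use. Endothelial and stromal genes summed to 19.7 to 20.5 and 24.0 to 24.1, mostly Col1a2. The dendritic cell list summed to 105.2 to 113.5 and 123.6 to 125.6, mostly Bst2 and H2-Ab1, the NK cell list to 8.99 to 9.26 and 6.95 to 6.98, and the B cell list to 2.14 to 2.79 and 1.97 to 2.61. Lat, Col1a2, Bst2 and H2-Ab1 were named after their values were seen.

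**Figure D5:**
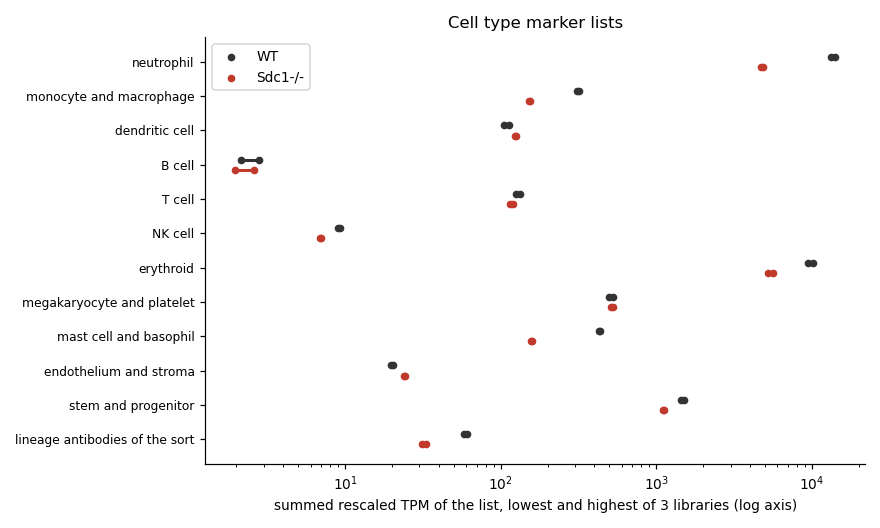
Summed level (rescaled TPM, log axis) of each cell type marker list, with the lowest and highest of 3 libraries joined, for libraries labelled WT (black) and Sdc1-/- (red). The neutrophil, monocyte and macrophage, mast cell and basophil, and erythroid sums are lower in the Sdc1-/- libraries, and the megakaryocyte and platelet sums overlap.

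Genes whose pattern over the 6 libraries was closest to that of a receptor were sought among 12154 other genes. Closeness was the smallest distance between centred log2(value + 1) profiles. The search covered the 3 receptor genes with the largest log2 fold changes on that scale among those tested. For Csf2rb2 they were Padi3 (distance 0.07), Anxa1 (0.09) and Fcgr3 (0.09), an enzyme that converts arginine to citrulline in proteins, an annexin and an Fc receptor of myeloid cells. For Csf1r they were Ddit4 (0.11), Cebpe (0.12) and Cd74 (0.13), where Cd74 is the invariant chain of MHC class II. For Csf2rb they were Epx (0.06), Fcer1g (0.06) and Gab2 (0.07), where Epx is eosinophil peroxidase and Fcer1g the signaling chain shared by Fc receptors. Epx, for example, was 26.9 ± 1.31 in the WT and 13.8 ± 0.47 in the Sdc1-/- libraries (SD, n = 3 each), next to 37.7 ± 1.45 and 20.2 ± 0.58 for Csf2rb (SD, n = 3 each). With 6 libraries in 2 groups, such a distance mostly reflects a like difference between the groups.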

How the data were processed

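RNA-seq libraries were made from 150 ng of total RNA with a stranded mRNA kit and read from one end over 75 bases. The authors ran kallisto and deposited a signal per gene and library, TPM rescaled between libraries, with sums of 944973 to 1058263. Submitters' notes name mm10 and sleuth 0.30.0. Read depth is unknown, and counting error could not be estimated. A second deposited table holds the authors' own sleuth comparison (effect sizes, p-values and q-values) and was not used here. Groups followed the labels.

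Symbols were matched for 35454 of 36083 gene IDs. Tests used limma 3.58.1 in R 4.3.3 on log2(value + 1) for 12155 genes whose mean was 1 or more. Group was the sole term, and eBayes used a variance trend. The test was planned for plain TPM and was not changed. The fit was tested on simulated data. Ratios used exact permutation tests in scipy 1.17.1. Called list genes with an absolute log2 fold change of at least 0.5 could be named, at most 6 per list, besides all receptors, the ligands, Il6st, Epor, Sdc1 and markers that define a cell type. Members, lists and motifs were chosen with earlier results of these data known. Alternatives changed the minimum mean, pseudocount, scaling, variance trend, replicate block and libraries. Some genes that this rule names are not reported here.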

Additional observations from a re-analysis of the deposited data

How the results depend on the processing

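Over 14 alternative fits, the 6 receptor genes called lower kept that call wherever they were tested (Csf1r and Csf3r fall below a minimum mean of 5), with log2 fold changes of -1.35 to -1.05 for Csf2rb2, -0.90 to -0.73 for Csf2rb, -0.76 to -0.57 for Flt3 and -0.49 to -0.31 for Csf2ra. The number of receptor genes called higher was 0 to 1 when single libraries were left out. Kit lost its call without WT replicate 1 (adjusted p = 0.055), without WT replicate 3 (0.060) and without Sdc1-/- replicate 2 (0.055), all from limma. Il3ra gained one without WT replicate 2 (adjusted p = 0.014 from limma). With a minimum mean of 5, 1 ligand gene was called instead of 2, since Csf1 was no longer tested. Without a minimum mean, 3 ligand genes were called, as Kitl was then called higher. A pseudocount of 1 in both levels moved 6 of the 8 ratios by more than 1 SD and turned none, with the log2 difference of Csf1r over Csf3r at -0.26 instead of -0.98. Same-numbered deviations correlated at 0.15, -0.01 and 0.02, and differently numbered ones at -0.16 to 0.14. With 3 libraries per group, such values cannot settle whether the replicate numbers mark a shared batch. A replicate block gave 7624 called genes instead of 7374 and changed no call of a receptor gene. Unknown depth limits what can be said of Csf1r, Il6ra and other genes with values around 1.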
